A study of Arabidopsis thaliana with 6 samples.

Results

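The plastid genome of *Arabidopsis* encodes a small part of the photosynthetic apparatus and of the machinery that expresses it, and 73 of the 22810 probe sets on the ATH1 array measured its transcripts here. They were taken from 1 block of 97 consecutively numbered probe sets, as those whose annotated gene lies on the plastid genome, and no minimum signal was asked of them. They stood for 72 genes, because *rps12* had 2 probe sets. The 2 genotypes compared were *bp er fil-10*, a suppressor line, and *bp er*, its parent line. Both carry the *bp* and *er* mutations, in genes that promote growth of the stem and pedicel, and *bp er fil-10* also carries a mutation in *FILAMENTOUS FLOWER* (*FIL*), a YABBY gene that acts on the abaxial side of lateral organs. The *fil-10* allele came from a chemical mutagenesis of *bp er* and had been backcrossed to the parent line, so *bp er fil-10* is 1 mutant line from 1 screen. RNA came from inflorescences of 5-week-old plants without buds beyond stage 13, grown at 22 °C with 16 h of light and 8 h of dark, as 3 biological replicates for each genotype. The values are MAS signals, linear hybridization intensities of each probe set.

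In plastids, the genes for the photosystems, the cytochrome b6f complex, the ATP synthase and the NDH complex lie beside genes for ribosomal proteins and for subunits of a bacterial-type RNA polymerase, mostly in operons that are transcribed together and then cut into smaller RNAs. Most subunits of these complexes are encoded in the nucleus, as is a second, phage-type RNA polymerase that transcribes some plastid genes. In inflorescences, green cells of the stem, pedicel, sepal and young carpel carry photosynthetic chloroplasts, and other floral cells hold plastids of other kinds. The complementary DNA was primed with oligo(dT), so each signal reports the plastid RNA that this primer copied.

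Signals of plastid genes were lower on the *bp er fil-10* arrays in nearly all members. The log2 difference (*bp er fil-10* minus *bp er*) was below 0 for 69 of the 73 members, against 43.6% of the 14456 probe sets that reached a signal of 100 on at least 3 of the 6 arrays and were tested. The median over the 73 members was −0.34, against 0.06 over all probe sets tested. In 30 members the arrays of the genotypes did not overlap and *bp er fil-10* was lower, which was so for 9.13% of all probe sets tested, and in 1 member, *psbJ*, it was higher without overlap. Single members were seldom separated from the spread between arrays. In limma, with Benjamini-Hochberg adjustment over all 14456 probe sets, 0 members passed at an adjusted p under 0.05, where 0.00692% of all probe sets passed as lower. At an unadjusted p under 0.05 there were 26 members, all lower, beside a background of 7.06%. With the replicate number as a block, 6 members passed as lower (*rbcL*, *psaA*, *psbB*, *atpB*, *atpF* and *atpA*) beside a background of 2.13%, and 0 as higher. On all 6 arrays these members passed only with arrays of the same number read as pairs. That reading has a narrow basis. With genotype means removed, same-numbered arrays correlated at 0.103, 0.221 and 0.380, and arrays of different numbers at up to 0.225. In whole inflorescences, fewer green cells and less plastid RNA per cell cannot be told apart, and neither was tested. The signals also depend on how much plastid RNA the oligo(dT) primer copied, which was not measured, and on array scaling, described below.

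**Figure D1:**
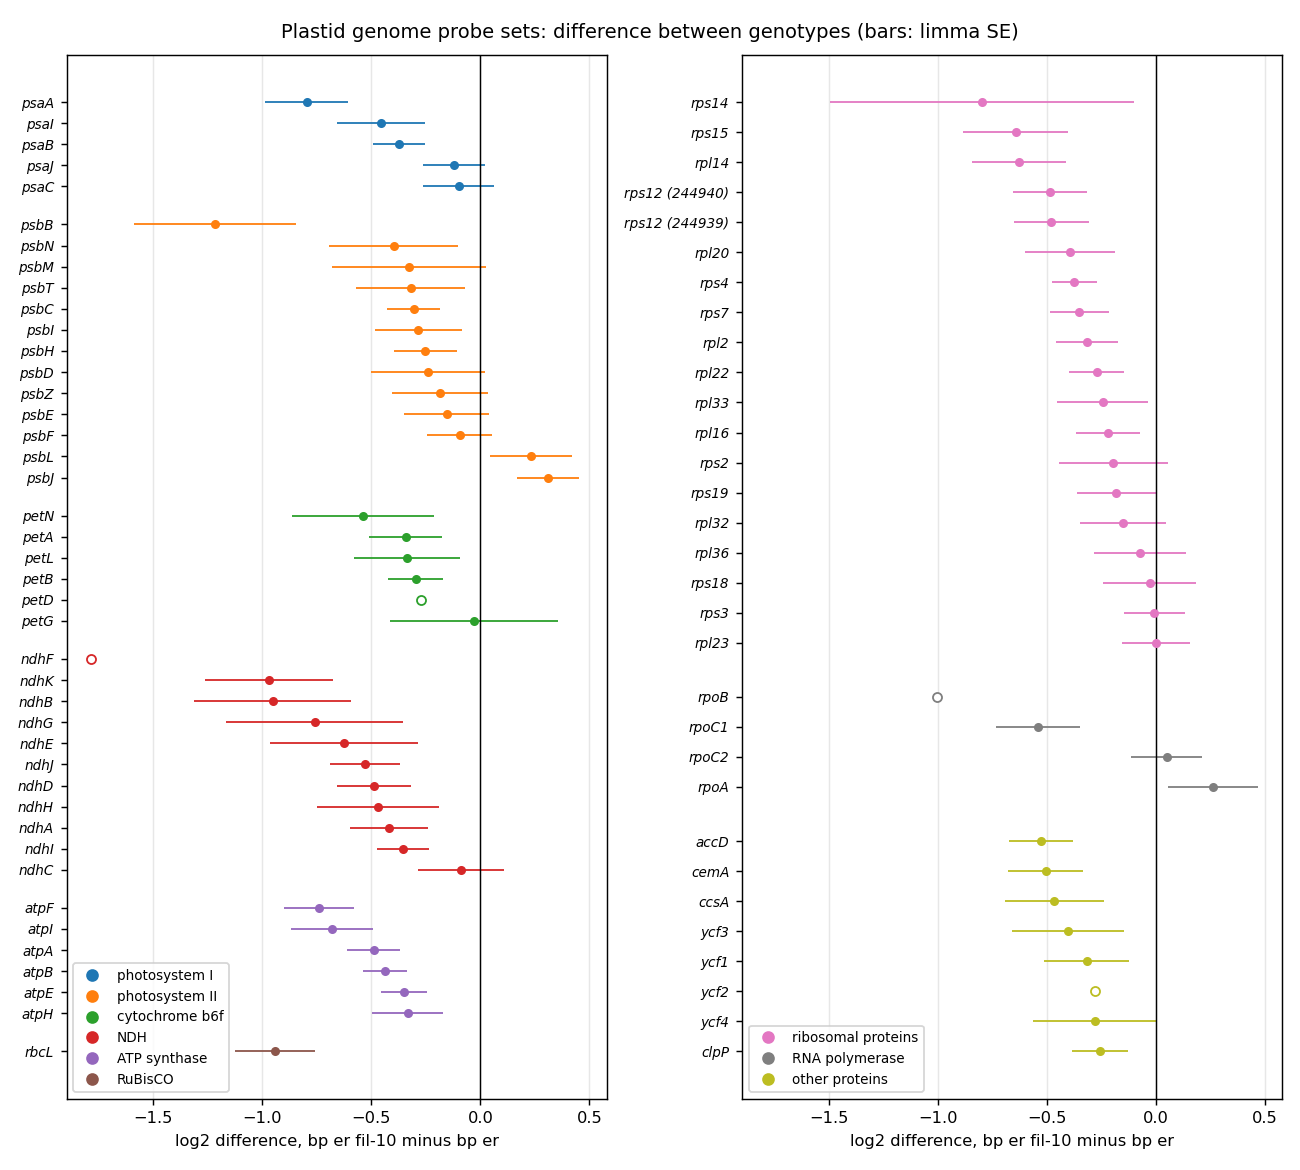
Log2 difference of each of the 73 plastid probe sets, *bp er fil-10* minus *bp er*, on the x axis, sorted by size within functional groups down the page. Points are differences with limma's standard error as bars, open points are the 4 members below the minimum signal, which were not tested, and 69 of the 73 lie left of 0.

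All of the 73 members are counted above, but 4 of them, *petD*, *ycf2*, *ndhF* and *rpoB*, were below the minimum signal and were not tested. One of the 69 that were tested, *ndhB*, reached it only through the *bp er* arrays, which fixed the lack of overlap for that gene. It is counted among the 30 members without overlap and the 26 at an unadjusted p under 0.05. For 7 genes (*rps12*, *rpl2*, *rpl23*, *ycf2*, *ndhB*, *rps7* and *ycf1*) the annotation lists 2 copies in the plastid genome. Their signal may come from both copies, which were not told apart. Summed over the members, the signal was 400424, 346625 and 374474 in *bp er fil-10*, against 472324, 427590 and 472522 in *bp er*. As a share of the summed signal of an array this was 2.65%, 2.34% and 2.47% in *bp er fil-10*, against 2.98%, 2.75% and 2.95% in *bp er*, without overlap. Between arrays of the same replicate number, 58, 54 and 59 members were lower in *bp er fil-10* for replicates 1, 2 and 3, with medians of −0.38, −0.22 and −0.51.

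The array as a whole also differed at its bright end, which bears on these counts. The highest signal on an array was 35822.9, 35962.9 and 33345.6 in *bp er fil-10*, against 42181.1, 44704.3 and 45022.3 in *bp er*, although the median signals overlapped (202.7 to 214.6 in *bp er fil-10*, 192.9 to 211.0 in *bp er*). Among probe sets with a mean signal of 10000 or more, the 14 members had a median log2 difference of −0.34 and the other 144 probe sets one of −0.31, with 13 of 14 members and 89.6% of the others below 0. At 1000 to 10000, the 36 members had a median of −0.28 and the 3272 others −0.03. At 100 to 1000, the median was −0.53 for the 19 members, all of them below 0, and 0.09 for the 10755 others, of which 40.3% were below 0. At 10000 or more, the arrays did not overlap, with *bp er fil-10* lower, in 8 of the 14 members and 49.3% of the others. At 1000 to 10000 this was so in 14 of the 36 members and 13.5% of the others. In the lowest class it was so in 8 of the 19 members and 7.08% of the others. The 8 of the lowest class include *ndhB*, whose mean signal reached 100 only through the *bp er* arrays. The brightest members thus had differences like those of other bright probe sets, whereas the dimmer ones did not.

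Quantile normalization, which gives all arrays the same distribution of signals, acted on the classes unequally. The median of the 14 brightest members became −0.02, beside −0.02 for the other bright probe sets. That of the 36 members between became −0.18, beside 0.01, and that of the 19 dimmest members became −0.60, beside 0.03. Over all 73 members, 56 were then below 0 (47.5% of all probe sets tested), and the median was −0.23. There were 21 members without overlap and lower, beside 1446 of the 14456 probe sets tested, and 15 lower at an unadjusted p under 0.05, beside a background of 7.37%. With quantile normalization and the replicate block together, limma passed 5 members as lower (*rbcL*, *psbB*, *psaA*, *atpF* and *ndhK*), beside a background of 2.22%. The part of array scaling in the differences of single bright members was not tested further. Each of the 14 brightest members is given below also by its value after quantile normalization.

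**Figure D2:**
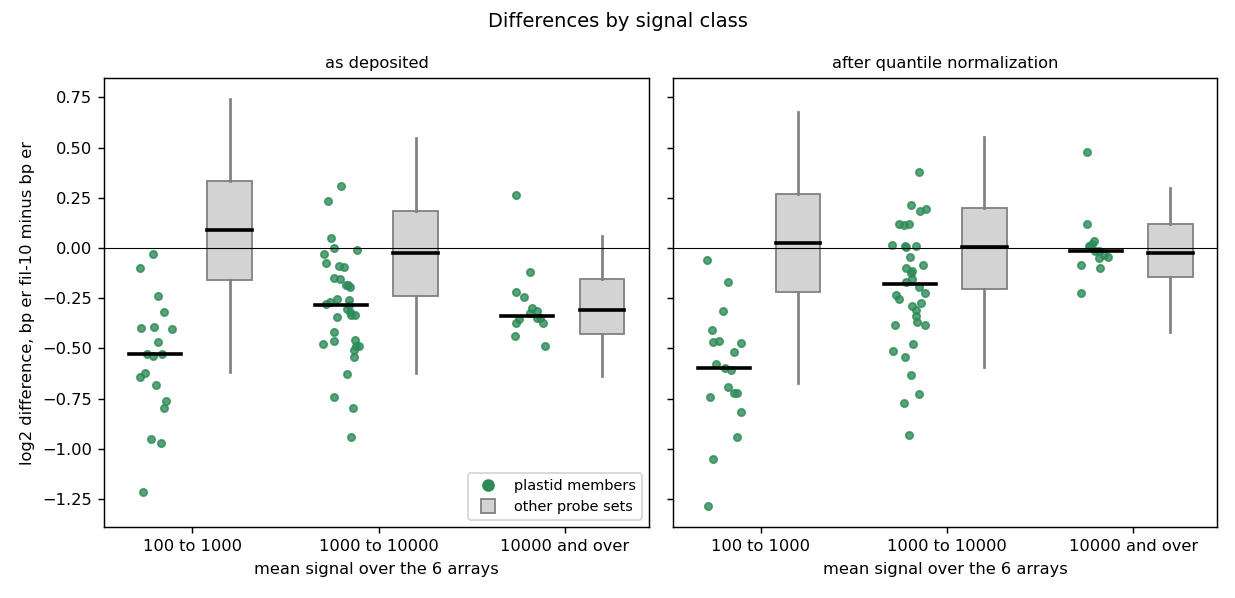
Log2 difference, *bp er fil-10* minus *bp er*, on the y axis, in 3 classes of mean signal on the x axis, as deposited and after quantile normalization. Green points are plastid members, with a black line at the median. Grey boxes hold the middle 50% of non-plastid probe sets, with whiskers to the 5th and 95th percentile and a black line at the median. Both were taken by a mean signal of at least 100, whether tested or not. Members at 100 to 1000 have a median of −0.53 as deposited and −0.60 after normalization, while the 14 members at 10000 and over move from −0.34 to −0.02, along with the other bright probe sets.

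Photosystem genes were lower in 16 of 18 members, with a median of −0.27. Photosystem I, which passes electrons to ferredoxin, had 5 members, all below 0. *psaA* and *psaB* encode the pair of large proteins that bind its reaction centre pigments. *psaA* had signals of 1554.4, 1949.4 and 1229.0 in *bp er fil-10*, against 3050.7, 2568.2 and 2487.5 in *bp er*. All 3 *bp er fil-10* arrays were below the *bp er* arrays, and the log2 difference was −0.80 (SE 0.19), with a limma adjusted p of 0.140 without the block and 0.0351 with it. For *psaB* the signals were 13300.1, 11604.0 and 12887.0 in *bp er fil-10* and 17246.8, 15016.4 and 16694.9 in *bp er*. These did not overlap either (−0.37, SE 0.12, limma adjusted p = 0.199), and the difference was −0.09 after quantile normalization, against −0.77 for *psaA*. The small subunit genes *psaI*, *psaJ* and the iron-sulphur protein gene *psaC* overlapped between genotypes and differed by −0.46, −0.12 and −0.10. After quantile normalization *psaJ* stood at 0.12.

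Photosystem II, which splits water, had 13 members, of which 11 were below 0. The difference was largest in *psbB*, the gene of the CP47 core antenna protein. Its signals were 480.8, 658.2 and 235.9 in *bp er fil-10*, against 726.9, 1320.5 and 978.0 in *bp er*, so that the arrays did not overlap although the spread within each genotype was wide. The log2 difference was −1.22 (SE 0.37), with a limma adjusted p of 0.187 without the block and 0.0361 with it, and it was −0.80 without *bp er fil-10* replicate 3. The mean of *bp er fil-10* was 0.455 of that of *bp er*. *psbC*, for the other core antenna protein CP43, had tightly grouped signals. They were 3128.2, 3435.4 and 3298.2 in *bp er fil-10*, against 4066.0, 4055.9 and 4062.8 in *bp er* (−0.31, SE 0.12, limma adjusted p = 0.253). *psbD*, the gene of the reaction centre protein D2, overlapped between genotypes (−0.24, SE 0.26).

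Among the small photosystem II subunits, *psbH* did not overlap (1664.3, 2133.8 and 1888.9 in *bp er fil-10*, against 2241.5, 2164.7 and 2333.2 in *bp er*, a difference of −0.25). *psbN*, needed to assemble the photosystem, and *psbT*, *psbI*, *psbZ*, *psbE* and *psbF* overlapped, with differences between −0.40 for *psbN* and −0.10 for *psbF*. *psbF* was at 0.01 after quantile normalization. *psbM* rested on 1 array. It had 22402.8, 7903.1 and 20243.8 in *bp er fil-10* and 17118.5, 22343.6 and 18452.1 in *bp er*, and its difference of −0.33 (SE 0.35) became 0.15 without *bp er fil-10* replicate 2 and −0.05 after quantile normalization. *psbJ* and *psbL*, also small subunits, were the exceptions of the complex. The *psbJ* signals were 3990.4, 3483.3 and 3397.6 in *bp er fil-10*, all above the 3327.1, 2715.9 and 2743.1 of *bp er* (0.31, SE 0.14, limma adjusted p = 0.319), and 0.38 after quantile normalization. *psbL* overlapped, at 0.23 (SE 0.19).

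The cytochrome b6f complex carries electrons between the photosystems. All 6 of its members were below 0, with a median of −0.32, but only *petB*, for cytochrome b6, did not overlap. *petB* had 13890.7, 15074.1 and 15234.1 in *bp er fil-10* and 18885.8, 15731.1 and 19918.5 in *bp er* (−0.30, SE 0.13, limma adjusted p = 0.287), and its difference was 0.01 after quantile normalization. *petA*, which encodes cytochrome f, and the small subunit genes *petL*, *petN* and *petG* overlapped, with differences of −0.34, −0.34, −0.54 and −0.03. For *petD*, the gene of subunit IV, signals were at most 72.5 in *bp er fil-10* and at most 123.3 in *bp er*.

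The NDH complex passes electrons from ferredoxin back to the plastoquinone pool around photosystem I. Its 11 plastid genes were below 0 without exception, with a median of −0.53. Of the 11, 6 did not overlap, all lower in *bp er fil-10* (*ndhK*, *ndhB*, *ndhJ*, *ndhD*, *ndhA* and *ndhI*), beside 9.13% of all probe sets tested. After quantile normalization 5 were lower without overlap, beside 1446 of the 14456. *ndhI* lies in the class of mean signals of 10000 or more, where 49.3% of non-plastid probe sets were lower without overlap. Limma passed 0 of the 10 NDH genes tested in either fit. At an unadjusted p under 0.05 there were 6, beside a background of 7.06%. *ndhB* is in both counts of 6, though it reached the minimum signal only through the *bp er* arrays, which fixed its lack of overlap. *ndhK* had 388.1, 424.2 and 186.2 in *bp er fil-10*, against 607.7, 602.5 and 627.4 in *bp er*, a difference of −0.97 (SE 0.30, limma adjusted p = 0.187 without the block and 0.0631 with it) and of −0.59 without *bp er fil-10* replicate 3. *ndhJ*, from the same operon, had 514.6, 517.7 and 455.2 in *bp er fil-10* and 825.8, 697.2 and 633.6 in *bp er* (−0.53, SE 0.16). Both encode subunits of the stromal arm. The groups of arrays were well apart for both genes, and quantile normalization left them at −1.05 and −0.61.

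*ndhD*, a membrane subunit gene, had 4535.7, 4036.5 and 4952.6 in *bp er fil-10* and 5862.3, 5446.1 and 7856.7 in *bp er* (−0.49, SE 0.17, limma adjusted p = 0.219). *ndhI*, for an iron-sulphur subunit, had 16559.3, 13837.4 and 16571.4 in *bp er fil-10* and 21007.8, 19148.7 and 19703.7 in *bp er* (−0.35, SE 0.12, limma adjusted p = 0.214). Neither overlapped, but *ndhI* stood at −0.05 after quantile normalization and *ndhD* at −0.34. *ndhB*, a membrane subunit gene, had 58.5, 78.7 and 83.8 in *bp er fil-10*, all under the minimum signal, and 122.4, 145.3 and 157.2 in *bp er*. With signals under 100 raised to 100 its difference was −0.49. *ndhA* differed by −0.42 without overlap, and *ndhG*, *ndhE* and *ndhH* by −0.76, −0.63 and −0.47 with overlap. On *bp er* replicate 3 the signals of *ndhG* and *ndhE* were 837.4 and 681.4, against 285.8, 495.4 and 184.3 for *ndhG* and 205.7, 314.5 and 260.7 for *ndhE* in *bp er fil-10*. Their differences without both replicate 3 arrays were −0.05 and −0.24. *ndhC* was nearest to 0 in the group. Its signals were 9837.9, 7781.4 and 8614.7 in *bp er fil-10* and 7971.1, 7909.2 and 12582.7 in *bp er* (−0.09, SE 0.20), and the sign turned to 0.12 after quantile normalization. All 6 *ndhF* signals were low, 3.7, 49.8 and 5.5 in *bp er fil-10* and 70.0, 17.6 and 33.7 in *bp er*, overlapped and give no usable ratio.

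The 6 plastid genes of the ATP synthase, which makes ATP from the proton gradient across the thylakoid membrane, were all between −0.74 and −0.33, with a median of −0.46. In 5 of the 6 the arrays did not overlap, beside 9.13% of all probe sets tested. After quantile normalization this was so in 3 of the 6, beside 1446 of the 14456. With the replicate block 3 passed limma, beside 2.13% (1 of them, *atpF*, after quantile normalization too, beside 2.22%). Among non-plastid probe sets with a mean signal of 10000 or more, the class of *atpA*, *atpB* and *atpE*, 49.3% were lower without overlap. *atpA* and *atpB* encode the alpha and beta subunits of the catalytic head. *atpA* had 12681.7, 10305.9 and 12028.7 in *bp er fil-10*, against 16677.6, 15837.8 and 16450.1 in *bp er* (−0.49, SE 0.12, limma adjusted p = 0.143 without the block and 0.0434 with it). *atpB* had 31292.6, 27797.1 and 30131.8 in *bp er fil-10*, against 39965.7, 39477.2 and 41138.3 in *bp er* (−0.44, SE 0.10, limma adjusted p = 0.132 without the block and 0.0361 with it). Both were far apart relative to their spread, yet after quantile normalization *atpA* stood at −0.23 and *atpB* at −0.03, and neither then passed limma with the block (adjusted p = 0.289 for *atpA* and 0.881 for *atpB*). *atpE*, for the epsilon subunit, differed by −0.35 without overlap and by 0.02 after quantile normalization.

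Larger differences came from *atpF* and *atpI*, of the membrane part of the enzyme. *atpF*, for a subunit of the stalk that links head and membrane, had 1423.7, 1551.0 and 1366.4 in *bp er fil-10*, against 2693.4, 2004.9 and 2601.9 in *bp er* (−0.74, SE 0.16, limma adjusted p = 0.124 without the block and 0.0433 with it). *atpI*, for the subunit of the proton channel, had 185.2, 201.9 and 180.9 in *bp er fil-10*, against 317.9, 263.0 and 333.5 in *bp er* (−0.68, SE 0.19, limma adjusted p = 0.163). Neither overlapped, and both were hardly moved by quantile normalization, at −0.73 and −0.74. *atpH*, which encodes the subunit of the rotating ring, overlapped, at −0.33 (SE 0.16).

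*rbcL*, the gene of the large subunit of RuBisCO, the enzyme that fixes carbon dioxide, had the smallest p of all members. Its signals were 1658.4, 1153.9 and 1390.3 in *bp er fil-10*, against 2368.8, 2528.2 and 3152.1 in *bp er*. The arrays of the genotypes did not overlap. The log2 difference was −0.94 (SE 0.18), −0.93 after quantile normalization, and its limma adjusted p was 0.123 without the block and 0.0242 with it.

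**Figure D3:**
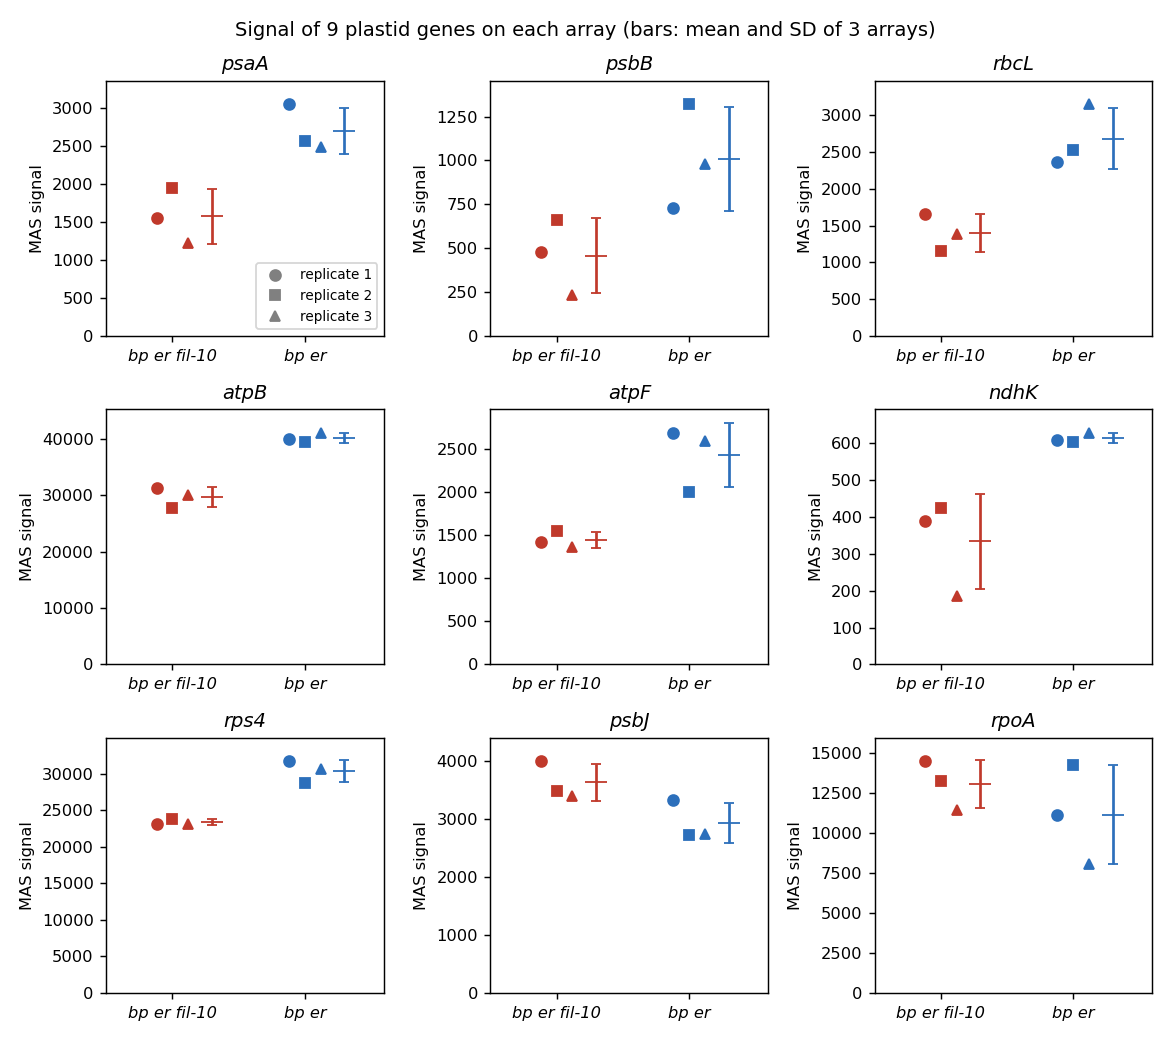
MAS signal on the y axis, from 0, of 9 plastid genes on the 3 *bp er fil-10* arrays (red, left) and the 3 *bp er* arrays (blue, right), with marker shapes for the replicate number and the mean with SD beside the points. The genotypes do not overlap for *psaA*, *psbB*, *rbcL*, *atpB*, *atpF*, *ndhK* and *rps4*, all lower in *bp er fil-10*, nor for *psbJ*, which is higher, and they overlap for *rpoA*.

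Ribosomal protein genes had 19 probe sets, all below 0, from −0.80 to −0.00, with a median of −0.27. The 10 of the small subunit had a median of −0.36 and the 9 of the large subunit one of −0.24. Without overlap were 8 of the 19, beside 9.13% of all probe sets tested, and limma passed 0 in either fit. At an unadjusted p under 0.05 there were 6, beside a background of 7.06%. This group depended most on the scaling of the arrays. After quantile normalization its median was −0.02, with 11 of the 19 below 0. *rps4*, a small subunit gene, had 23146.9, 23817.0 and 23162.2 in *bp er fil-10*, against 31690.6, 28693.3 and 30564.2 in *bp er* (−0.37, SE 0.10, limma adjusted p = 0.163). Its arrays were tightly grouped and apart, but the difference was 0.04 after quantile normalization. *rps7* had 13042.2, 12505.6 and 12513.9 in *bp er fil-10* and 19163.9, 15121.7 and 14604.7 in *bp er* (−0.35, SE 0.13), and −0.10 after quantile normalization. *rpl2* overlapped at −0.32, and at 0.01 after it.

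Other ribosomal protein genes differed also after that normalization. *rps15* had 356.6, 357.6 and 302.0 in *bp er fil-10*, all below the 764.9, 416.4 and 460.7 of *bp er* (−0.64, SE 0.24, limma adjusted p = 0.236), and stood at −0.72 after it. *rpl14* differed by −0.63 and the 2 probe sets of *rps12* by −0.48 and −0.49, all without overlap, and after quantile normalization by −0.63, −0.51 and −0.31. *rpl20* and *rpl22* were also without overlap, at −0.39 and −0.27. *rps14* was too variable to place. It had 44.5, 229.6 and 62.6 in *bp er fil-10* and 208.7, 68.4 and 235.0 in *bp er* (−0.80, SE 0.70), and −0.37 with signals under 100 raised to 100. The other 9 genes of the group overlapped, from *rpl33* and *rpl16* at −0.24 and −0.22 to *rps3* and *rpl23* at −0.01 and −0.00. After quantile normalization *rpl33* and *rpl16* stood at −0.02 and −0.01.

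**Figure D4:**
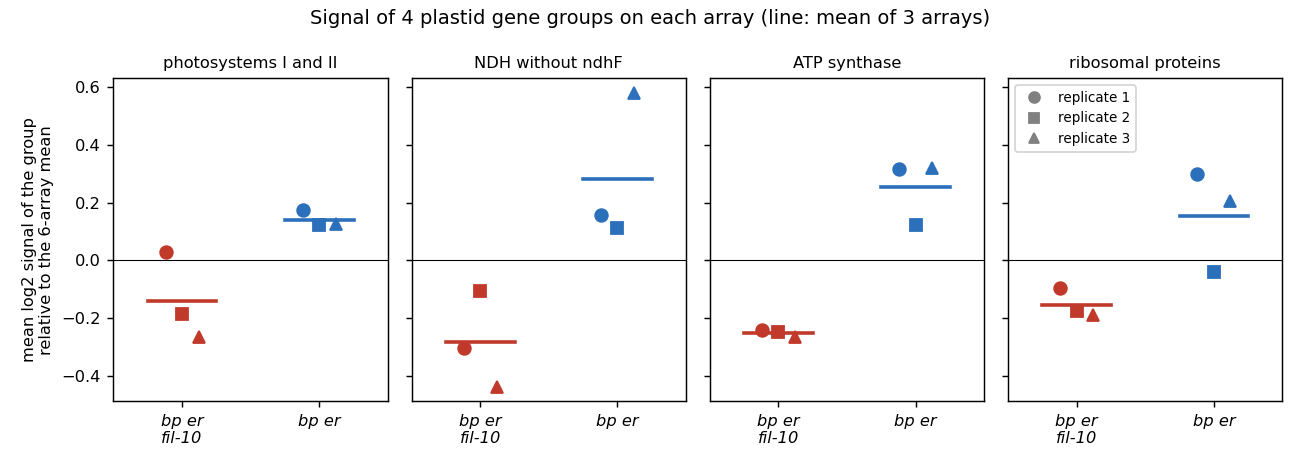
Mean log2 signal as deposited, for 4 groups of plastid genes on each array, relative to each gene's mean over the 6 arrays (y axis). *bp er fil-10* is red, on the left, and *bp er* is blue, on the right. Marker shapes give the replicate number, and a line marks the mean of 3 arrays. The ATP synthase group lies between −0.27 and −0.24 in *bp er fil-10* and between 0.12 and 0.32 in *bp er*, while the NDH group, drawn without *ndhF*, spreads from −0.44 to −0.11 in *bp er fil-10* and from 0.11 to 0.58 in *bp er*.

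Averaged by array from the signals as deposited, the photosystem, NDH, ATP synthase and ribosomal protein genes did not overlap between genotypes. They were lower in *bp er fil-10*, by different margins. Photosystem genes averaged 0.03, −0.19 and −0.27 on the log2 scale around each gene's mean in *bp er fil-10*, and 0.18, 0.12 and 0.13 in *bp er*. The 10 NDH genes tested, without the dim *ndhF*, averaged −0.30, −0.11 and −0.44 in *bp er fil-10*, and 0.16, 0.11 and 0.58 in *bp er*. With *ndhF* the averages were −0.49, 0.03 and −0.56 in *bp er fil-10*, and 0.32, 0.09 and 0.60 in *bp er*. ATP synthase genes averaged −0.24, −0.25 and −0.27 in *bp er fil-10*, and 0.32, 0.12 and 0.32 in *bp er*. Ribosomal protein genes averaged −0.10, −0.18 and −0.19 in *bp er fil-10*, and 0.30, −0.04 and 0.20 in *bp er*. These averages are descriptions without a test, since genes of 1 operon share transcripts. They were not made after quantile normalization. The group medians of the differences were then −0.15 for photosystem, −0.61 for NDH, −0.25 for ATP synthase and −0.02 for ribosomal protein genes.

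The plastid-encoded RNA polymerase, which transcribes most photosynthesis genes in green plastids, had 4 members in no common direction. *rpoC1*, for the beta-prime subunit, had 1152.6, 1249.4 and 1293.3 in *bp er fil-10*, all below the 1861.8, 1371.0 and 2246.2 of *bp er* (−0.54, SE 0.19, limma adjusted p = 0.226). *rpoC2*, from the same operon, differed by 0.05 (SE 0.16), a sign that turned to −0.03 when arrays were centred on nuclear genes. *rpoA*, for the alpha subunit, had 14504.9, 13256.7 and 11465.1 in *bp er fil-10* and 11156.2, 14244.9 and 8052.3 in *bp er* (0.26, SE 0.21, limma adjusted p = 0.549), with overlap. Its difference was 0.48 after quantile normalization and 0.05 without *bp er* replicate 3. *rpoB*, for the beta subunit, was below the minimum, with 22.7, 109.4 and 42.7 in *bp er fil-10* and 113.0, 79.1 and 95.3 in *bp er*.

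The remaining 8 members, of diverse function, were all below 0, with a median of −0.36, and 3 of them did not overlap. *accD*, which encodes a subunit of the acetyl-CoA carboxylase for fatty acid synthesis, had 764.7, 675.3 and 636.2 in *bp er fil-10*, against 994.6, 1046.8 and 945.0 in *bp er* (−0.53, SE 0.15, limma adjusted p = 0.163), and −0.60 after quantile normalization. *cemA*, for a protein of the inner envelope, had 3842.0, 4828.3 and 3169.6 in *bp er fil-10*, against 5673.6, 5000.9 and 5930.5 in *bp er* (−0.51, SE 0.17). *clpP*, for a subunit of the Clp protease, had 9566.0, 9621.0 and 8132.8 in *bp er fil-10* and 11125.5, 9870.3 and 11622.5 in *bp er* (−0.26, SE 0.13), and −0.04 after quantile normalization. The arrays of the genotypes were thus apart in 3 of these 8 members, beside 9.13% of all probe sets tested. After quantile normalization they were apart in 1 of the 8, beside 1446 of the 14456 probe sets tested. *ccsA*, needed to attach haem to c-type cytochromes, *ycf3* and *ycf4*, needed to assemble photosystem I, and *ycf1* overlapped, at −0.47, −0.40, −0.28 and −0.32. *ycf2* was below the minimum, with 54.6 to 75.1 in *bp er fil-10* and 33.8 to 139.1 in *bp er*.

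Differences of single genes lay far apart in some operons and close together in others. In the *psbB* operon, *psbB* stood at −1.22, whereas *psbT*, *psbH* and *petB* stood at −0.32, −0.25 and −0.30. In the *ndhC* operon, *ndhC* stood at −0.09, *ndhK* at −0.97 and *ndhJ* at −0.53. The *psaA* operon had *psaA* at −0.80, *psaB* at −0.37 and the variable *rps14* at −0.80. In the *atpI* operon, *rps2* stood at −0.20, *atpH* at −0.33, *atpA* at −0.49, *atpI* at −0.68 and *atpF* at −0.74. The *psbE* operon was split in sign, with *psbE* and *psbF* at −0.15 and −0.10 and *psbL* and *psbJ* at 0.23 and 0.31. The long ribosomal protein operon ran from *rpl14* at −0.63 to *rpoA*, its last gene, at 0.26. The narrowest among operons with more than 2 genes tested were the *psaI* operon, whose 4 genes lay within 0.23 of each other, and the *psaJ* operon, whose 3 genes lay within 0.21. Several of these operons mix bright and dim probe sets, and differences between genes of 1 operon were not tested.

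**Figure D5:**
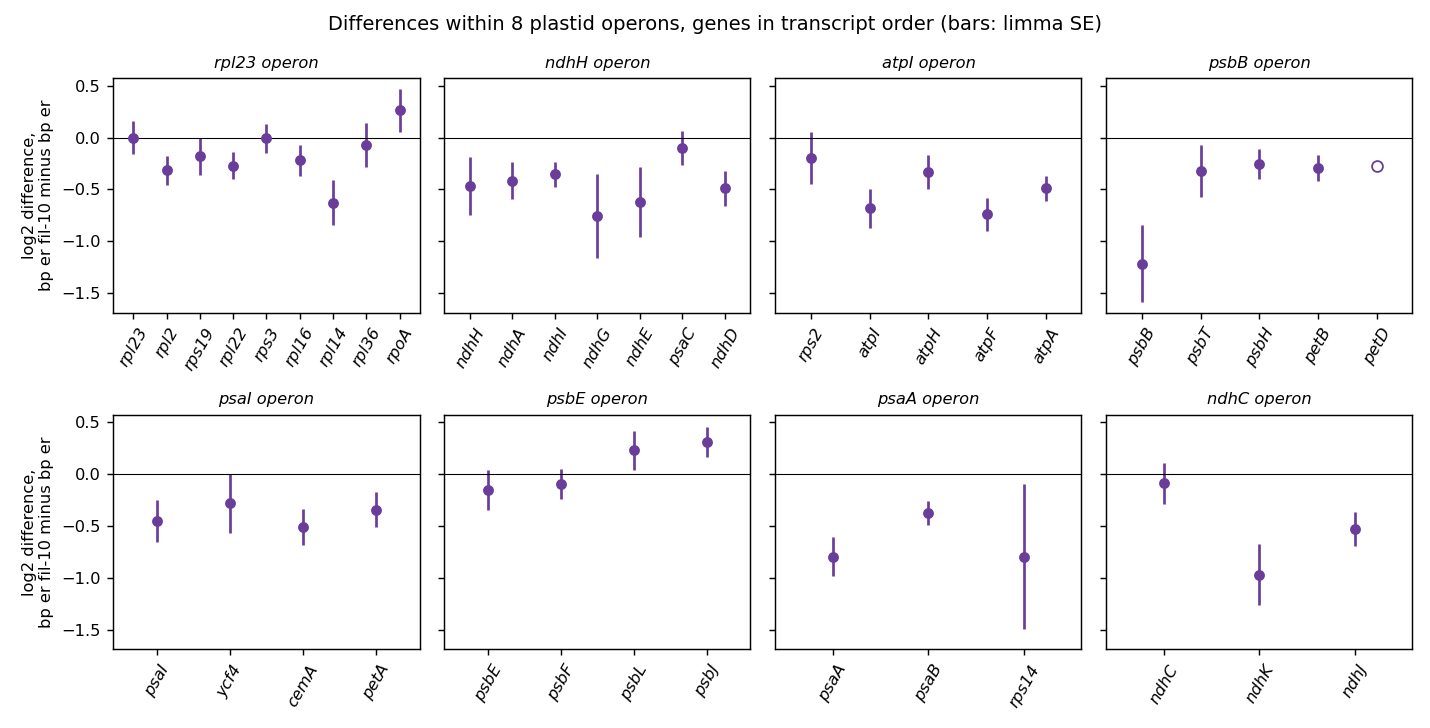
Log2 difference, *bp er fil-10* minus *bp er*, on the y axis for the genes of 8 plastid operons, in the order of the transcript along the x axis, with limma's standard error as bars and an open point for *petD*, which was not tested. Differences span 0.97 in the *psbB* operon and 0.88 in the *ndhC* operon, and 0.23 in the *psaI* operon.

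Outside the probe set numbers that defined the members, 4 more probe sets were annotated to the plastid genome, and these had not entered the counts above. All 4 were below 0, with a median of −0.39. *psbA*, for the D1 protein of the photosystem II reaction centre, had 2133.9, 1876.3 and 1704.9 in *bp er fil-10*, against 2538.2, 4112.3 and 2674.4 in *bp er*, without overlap (−0.68, SE 0.21, limma adjusted p = 0.184 without the block and 0.0681 with it). *rps16*, a ribosomal protein gene, was also without overlap, with 314.1, 366.6 and 351.1 in *bp er fil-10* and 453.4, 422.7 and 506.1 in *bp er* (−0.42, SE 0.16). *matK*, for a maturase of plastid introns, and *psbK* overlapped, at −0.35 and −0.27.

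Nuclear genes for the same complexes could be followed in part, because 10 of a list of 59 nuclear photosynthesis genes had a named probe set. All 10 were below 0, with a median of −0.38, and 6 did not overlap, beside 9.13% of all probe sets tested. Limma passed 0 of the 10 in either fit. At an unadjusted p under 0.05 there were 7, beside a background of 7.06%. Among non-plastid probe sets with a mean signal of 10000 or more, which include *PSAE1* and *LHCB4.1*, 49.3% were lower without overlap. *PSAE1*, a photosystem I subunit gene, had 10827.8, 9668.6 and 10747.8 in *bp er fil-10*, against 15542.6, 12112.2 and 14305.6 in *bp er* (−0.42, SE 0.13, limma adjusted p = 0.198). *LHCB4.1*, for a light-harvesting protein of photosystem II, had 13749.7, 9154.8 and 10167.4 in *bp er fil-10*, against 14614.9, 14712.5 and 17362.5 in *bp er* (−0.51, SE 0.17, limma adjusted p = 0.211). *NDHN*, a nuclear subunit gene of the NDH complex, had 584.1, 487.2 and 646.8 in *bp er fil-10*, against 950.4, 796.7 and 714.0 in *bp er* (−0.52, SE 0.18, limma adjusted p = 0.217). In each of the 3 the arrays did not overlap. After quantile normalization the median of the 10 was −0.16, with *NDHN* at −0.59 and *PSAE1* at −0.17.

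Of 23 nuclear genes for plastid ribosomal proteins, 2 had a named probe set, *RPS6* at −0.25 and *RPS10* at −0.05, and neither passed limma. Of 26 genes for plastid transcription 1 had one, *RPOTMP*, for a phage-type RNA polymerase of plastids and mitochondria. It had 95.4, 164.4 and 122.8 in *bp er fil-10* and 117.3, 23.6 and 14.1 in *bp er*, with overlap. The log2 difference was 1.88 (SE 0.84, limma adjusted p = 0.306), and 0.26 once signals under 100 were set to 100. Mitochondrial genome transcripts gave 24 probe sets, named from an older annotation, of which 10 were tested. All 10 were below 0, with a median of −0.35, and 1 did not overlap, beside 9.13% of all probe sets tested. The 1 without overlap was *ccb452*, a gene for cytochrome c maturation, at −0.78. Its limma adjusted p was 0.124 without the block and 0.0489 with it, where 2.13% of all probe sets tested passed as lower. Tested probe sets of the mitochondrial genome were thus below 0 as most of those of the plastid genome were.

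Probe sets for *FIL*, *BP* and *ER* were not named in the annotation used here, so the genotypes were not checked against their own genes. Few tissue markers were named. Of 13 flower organ identity genes 1 was, *UFO*, with signals of at most 53.3 on all arrays. Of 5 root hair genes 2 were, *EXPA7* and *EXPA18*, with at most 63.5. Of 7 tapetum genes, *AMS* had 99.1 to 136.0 in *bp er fil-10* and 117.1 to 131.9 in *bp er*. The tapetum gene *A9* had 6252.6, 6566.9 and 8187.1 in *bp er fil-10*, all above the 5567.2, 4735.1 and 4781.8 of *bp er* (0.47, SE 0.15, limma adjusted p = 0.197). Neither of the mature pollen genes on the list was named. The part of tissue composition in the plastid differences was not tested.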

How the data were processed

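Per the study's methods, total RNA was reverse transcribed with oligo(dT), amplified in vitro with a biotin label and hybridized to Affymetrix ATH1 arrays. The deposited values are signal intensities per probe set, which the authors made with GCOS/MAS and scaled linearly on each array to a target of 500. The software version is not given in the sources used here, and the file holds no detection calls. Analysis used log2 of the deposited signal, with the single 0 in the file replaced by 0.1. Affymetrix controls were left out, and the 14456 probe sets that reached 100 on 3 or more of the 6 arrays were tested. The test was limma 3.58.1 under R 4.3.3, with lmFit, eBayes and its trend option, 2-sided. P-values were adjusted by Benjamini-Hochberg across the 14456, and the threshold for a call was 0.05. The fit was also run on simulated data, with the same spread for every probe set and changes larger than those of most members. That run does not give the rate of calls at the spreads and differences of the members. Tables and figures were made with Python 3.11.15, pandas 2.3.3, numpy 2.4.6 and matplotlib 3.10.9. Precision is limited by having 3 arrays for each genotype.

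Replicate numbers in the labels run from 1 to 3 in both genotypes. After the mean of each genotype was removed, same-numbered arrays correlated at 0.103, 0.221 and 0.380 and arrays of different numbers at up to 0.225. The 0.225 was between *bp er fil-10* replicate 1 and *bp er* replicate 2, above the 0.103 of the replicate 1 arrays. As all 3 same-numbered values passed the limit of 0.1, the numbers were read as pairs, on a narrow basis. A second fit with replicate as a block is given where a call changes. Gene names came from the annotation of the probe sets, which lists 14016 of them, and from the TAIR10.1 gene table. Genes of the other probe sets were not analysed here. Members named by rule were, in each functional group, the 3 with the highest mean signal and the 2 with the largest difference, every member called in either fit, and *psbB* and *ndhF*, which the study lists as lower on these same arrays. Other members were named after their values were seen. The members, gene lists and operons were chosen with earlier results of these data known. Alternatives were quantile normalization, centring on nuclear genes, other filters and floors, no intensity trend, the ratio of mean signals, the replicate block and leaving out each array. Leaving out both replicate 3 arrays, quantile normalization with the block, and the classes of mean signal were added after seeing the data.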

Additional observations from a re-analysis of the deposited data

How the results depend on the processing

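Members called higher numbered 0 under every alternative run. Members called lower numbered 0 except with the replicate block (6), with quantile normalization and the replicate block (5) and without both replicate 3 arrays (4). Of all probe sets tested, 2.13% and 2.22% were called lower in the first 2 of these settings. That share was not counted for the third, so the 4 members there have no background beside them. Of the members called, *psaA*, *rbcL* and *atpF* were called in all 3 settings. The medians of all members, photosystem, ATP synthase and ribosomal protein genes were −0.233, −0.146, −0.251 and −0.015 after quantile normalization, with or without the block, and that of ATP synthase genes was −0.543 after centring on nuclear genes, a step that moved the median of all probe sets tested from 0.057 to −0.023. Leaving out 1 array gave medians of −0.418 to −0.291 for all members, −0.310 to −0.210 for photosystem, −0.725 to −0.362 for NDH, −0.513 to −0.415 for ATP synthase and −0.399 to −0.213 for ribosomal protein genes. Signs turned after quantile normalization, again with or without the block, for *psbF* (0.012), *psaJ* (0.119), *petB* (0.011), *rpl2* (0.008), *rps4* (0.036), *ndhC* (0.116) and *atpE* (0.020), and for *rpl23* (0.213), *rps3* (0.185), *rps18* (0.120), *rpl36* (0.119), *rps19* (0.013) and *rpl32* (0.012). They also turned for *rpoC2* after nuclear centring (−0.031) and without both replicate 3 arrays (−0.090), and without both for *petD* (0.888), *petG* (0.586), *rps18* (0.235), *ndhC* (0.140), *psbD* (0.120), *psbE* (0.056), *ycf4* (0.051) and *rpl33* (0.016). With 1 array left out, *psbM* ranged from −0.601 to 0.151, *rpoC2* from −0.040 to 0.153 and *ndhC* from −0.202 to 0.133, among the members named by rule. The cause of these shifts was not tested beyond the classes of mean signal. Without both replicate 3 arrays 62 of the 73 members were below 0, and with any 1 array left out 63 to 69 were.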
